A study of Homo sapiens with 12 samples.

Results

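The 38 HOX genes described here are the homeobox genes of the HOXA, HOXB, HOXC and HOXD clusters on a fixed list, matched by symbol among the 25343 genes of the deposited count table. Clusters A and B gave 10 members each and clusters C and D gave 9 each, chosen by name and not by level. RNA was sequenced from SW48, a colorectal cancer line, and OVK18, an ovarian cancer line, both engineered to express the nuclease Cas9. Both lines have unstable microsatellites, and the guides ask what loss of WRN does in such cells. Cells were harvested 72 h after transduction with 1 of 3 guide RNAs. Of the 6 groups, 2 were controls that carried sgCh2-2, a guide to a site between genes on chromosome 2, in SW48 and in OVK18. The other 4 groups carried sgWRN2 or sgWRN3, guides to the RecQ helicase gene WRN, in SW48 or in OVK18. Each group had 2 libraries, A and B, so the data hold 12 libraries, and Cas9 and guide transduction were common to all of them. The labels do not say whether A and B came from separate cultures, so p-values measure only the spread between these libraries, which may be technical. Each tissue of origin is represented by 1 line, so tissue and line cannot be told apart.

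HOX genes encode homeodomain transcription factors that give cells a positional identity along the body axis. Within each cluster the genes lie in order of paralog number, and low numbers are used toward the head and high numbers toward the tail; adult tissues and tumor lines often keep a HOX pattern that reflects their origin. HOX proteins bind DNA together with cofactors of the TALE class (PBX, MEIS and PKNOX proteins). Polycomb complexes hold silent clusters closed, and MLL and trithorax complexes keep active genes open. CDX2, a caudal-type homeodomain factor of the intestine, acts upstream of HOX genes in the trunk and gut.

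Promoter sequences are shown as examples for members that were higher in one line and had a motif match. Not all such members are shown: HOXA2, HOXA3 and HOXD3 also had a match. Other members called between the lines had a promoter without a match, among them HOXA7, HOXA11, HOXA13, HOXD10 and HOXD13. Neighbouring genes of a cluster can share a start. RefSeq (GRCh38.p14) gave 27 promoters for 20 of the 38 members, matched by symbol. The rest were not searched: HOXA5, HOXB2 to HOXB9, HOXB13, HOXC6 to HOXC13 and HOXD9. The search thus left out most HOXB and HOXC genes. The 250 bases before the start are printed 5′ to 3′ on the gene's strand, and capitals mark a match on either strand to the caudal-type motif TTTATNG, the PBX-HOX motif TGATNNAT or the homeodomain core TAATTA. The start of HOXC4 and HOXC5 is the same, chr12:54016638-54016887 on the plus strand, so 1 sequence stands for both. HOXA9 (chr7:27165538-27165787) and HOXA10 (chr7:27179862-27180111) lie on the minus strand, and HOXD11 (chr2:176107030-176107279) lies on the plus strand. HOXA10 has another RefSeq start (chr7:27174321-27174570), which held no match and is not printed.
HOXC4 and HOXC5: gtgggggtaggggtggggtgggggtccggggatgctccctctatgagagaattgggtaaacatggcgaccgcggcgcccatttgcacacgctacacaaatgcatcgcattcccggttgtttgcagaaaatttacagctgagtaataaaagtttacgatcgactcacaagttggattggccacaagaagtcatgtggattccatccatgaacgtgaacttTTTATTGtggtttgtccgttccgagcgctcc
HOXA9: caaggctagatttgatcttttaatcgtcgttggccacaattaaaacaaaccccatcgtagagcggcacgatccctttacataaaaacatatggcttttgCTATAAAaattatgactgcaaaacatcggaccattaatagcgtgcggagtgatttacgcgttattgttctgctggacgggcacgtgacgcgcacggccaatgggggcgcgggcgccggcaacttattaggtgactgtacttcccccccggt
HOXA10: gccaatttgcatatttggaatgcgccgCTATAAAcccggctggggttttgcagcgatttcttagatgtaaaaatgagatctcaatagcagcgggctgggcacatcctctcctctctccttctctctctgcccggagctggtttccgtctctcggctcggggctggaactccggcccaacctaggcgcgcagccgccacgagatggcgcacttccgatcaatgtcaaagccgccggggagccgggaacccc
HOXD11: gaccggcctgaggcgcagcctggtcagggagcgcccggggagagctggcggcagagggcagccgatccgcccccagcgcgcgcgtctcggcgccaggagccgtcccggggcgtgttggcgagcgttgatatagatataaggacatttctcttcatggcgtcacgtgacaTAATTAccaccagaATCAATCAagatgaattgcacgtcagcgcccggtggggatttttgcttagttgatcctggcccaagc

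Counting a window shared by 2 genes once, the members had 26 promoter windows of 300 bases, from 250 bases before to 50 after the start. The caudal-type motif was present in 6 of these 26 (23.1%) and in 9.75% of all 34943 RefSeq windows. The first base of the match lay 31 bases before the start in HOXC4 and HOXC5, 151 before it in HOXA9 and 223 before the printed start of HOXA10. Matches also lay 62, 193 and 211 bases before starts of HOXA3, which has several windows in the set. In HOXD8, which was not called between the lines, the match lay 92 bases before the start. The PBX-HOX motif was found in 3 member windows (11.5%) and 7.42% of all. The homeodomain core was found in 2 member windows (7.69%) and 4.85% of all. HOXD11 held both, 67 and 81 bases before its start. These matches describe letters in the window and are not binding sites. The median GC content was 58% in member promoters and 58.7% in all promoters.

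Where 2 values of a group are given, that of library A comes first. Libraries held 15423162 to 32581625 counts. WRN was checked first, on counts scaled to library size with edgeR's TMM factors (CPM). It was at 91.2 and 112 CPM in the SW48 controls, 37.2 and 34.1 with sgWRN2 and 42.3 and 56.9 with sgWRN3. The OVK18 controls read 32 and 39.8 CPM, the sgWRN2 libraries 22 and 21 and the sgWRN3 libraries 22.2 and 23. In each line neither control was reached by any WRN-guide library. Over both guides WRN mRNA fell in SW48 (log2 difference -1.27 ± 0.132 (SE), adjusted p = 0.00409, edgeR quasi-likelihood test with Benjamini-Hochberg adjustment over 14199 genes), and in OVK18 the difference did not pass the threshold of 0.05 (log2 difference -0.71 ± 0.136 (SE), adjusted p = 0.206). Over both guides the WRN call in SW48 was lost without sgCh2-2 replicate B (log2 difference -1.13) and without the 4 sgWRN2 libraries (-1.03). In OVK18 WRN was called over both guides in DESeq2 (adjusted p = 0.007) and in edgeR without a filter on low counts (adjusted p = 0.000215). In the main edgeR fit WRN did not pass with sgWRN3 alone in either line, or with sgWRN2 alone in OVK18. DESeq2 called it with sgWRN3 in SW48 (adjusted p = 0.000163) and with sgWRN2 in OVK18 (adjusted p = 0.00568). Of 8 intestinal markers, 5 passed the filter on low counts, all through SW48 libraries alone, so that their higher level there (CDX2, HNF4A, CDH17, VIL1 and CEACAM5) is a description, while CDX1, KRT20 and LGALS4 were at or near 0 in both lines. The ovarian and Mullerian markers went against the label of OVK18, where PAX8, WFDC2, EMX2 and ESR1 were at or near 0. PAX8, WFDC2 and MSLN, kept by the filter through SW48 libraries alone, were higher in SW48. Only WT1, kept through OVK18 libraries alone, was higher in OVK18, at 0.911 ± 0.194 CPM (SD, n = 2). These directions are descriptions too. Of 6 fibroblast markers, 4 passed the filter, all through OVK18 libraries alone, with COL3A1 at 436 ± 26.5 CPM (SD, n = 2) and PDGFRA at 22.4 ± 1.14; THY1 was at 0 in every library. The leukocyte marker PTPRC was at 3.23 ± 0.316 CPM (SD, n = 2) in SW48, CD68 was detected in both lines (7.38 ± 0.0242 CPM in SW48, 5.3 ± 1.19 in OVK18), and the endothelial markers PECAM1 and CDH5 were at or near 0. In bulk RNA, fewer cells of a type and less RNA per cell cannot be told apart.

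The control libraries held a HOXB-dominated pattern in SW48 and a HOXC-dominated pattern in OVK18. Of the 38 members, 36 passed the filter on low counts, and 33 of these differed between the lines' controls at an adjusted p under 0.05, 10 higher in SW48 and 23 higher in OVK18. Of all genes tested, 68.6% differed in the same comparison, 33.9% higher in SW48 and 34.7% higher in OVK18. The median size of the log2 difference was 2.88 for members and 0.73 for all genes. The member median includes those kept by the filter through 1 line alone, listed below, and was not taken without them. Among these, HOXC12 and HOXD9 to HOXD11 had 0 counts in the SW48 controls, so their fitted values depend on the prior count. HOXA6, HOXD4 and HOXD8 did not pass the threshold. HOXB1 (0 counts in every library) and HOXD12 (1 to 5 counts a library) were not tested. The filter kept 27 members through libraries of both lines, of which 9 were higher in SW48 and 15 in OVK18. Another 8 passed through OVK18 libraries alone: HOXC5, HOXC11, HOXC12, HOXD1, HOXD9, HOXD10, HOXD11 and HOXD13. HOXD3 was the 1 that passed through SW48 alone. These 9 had to differ to some degree to be kept, so their differences are descriptions.

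**Figure D1:**
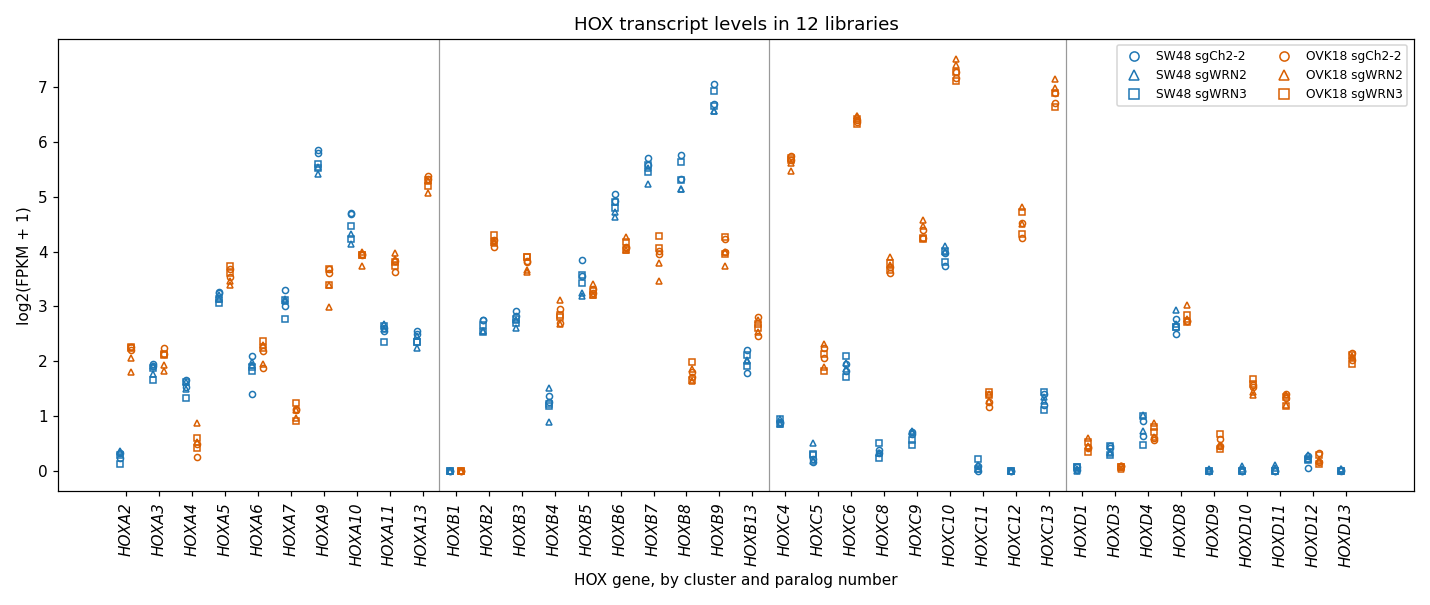
Level of each of the 38 HOX genes in each library, as log2(FPKM + 1) from the deposited length-scaled table, by cluster and paralog number; blue marks are SW48, orange marks OVK18, and the shape gives the guide. HOXC10 reached 149 ± 8.31 FPKM (SD, n = 2) in OVK18 controls against 13.6 ± 1.73 in SW48, and HOXB9 had the opposite order.

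Summed per length, in FPKM (fragments scaled by transcript length and library size), the members came to 444 and 382 in the SW48 controls and 682 and 646 in the OVK18 controls. In SW48 the HOXB genes made up 65.8% ± 2.5 of that sum (SD, n = 2), HOXA 27.9% ± 2.2, HOXC 4.76% ± 0.033 and HOXD 1.58% ± 0.336. In OVK18 the HOXC genes made up 67.7% ± 0.718, HOXA 15.2% ± 0.539, HOXB 14.9% ± 0.121 and HOXD 2.10% ± 0.058. Over all 6 libraries of a line the HOXB share stayed between 63.1% and 68.4% in SW48 and between 13.1% and 15.9% in OVK18, and the HOXC share between 4.74% and 6.47% in SW48 and between 66.3% and 72.6% in OVK18. The shares of the 2 lines did not overlap for HOXB or HOXC, in FPKM or in CPM. The FPKM share of HOXA was 24.7% to 29.4% in SW48 and 12.1% to 15.9% in OVK18, and much of this gap came from HOXA9, whose FPKM and counts disagree as described with that gene. Without HOXA9 the share was 15.04% to 17.5% against 11.2% to 14.3%, and in CPM the HOXA shares overlapped, at 14.7% to 17.4% against 12.8% to 16.3%. By paralog number, genes 9 to 13 held 54.9% ± 0.095 of the sum in SW48 controls and 61.4% ± 1.60 in OVK18. Without HOXA9 these were 47.8% ± 0.816 and 60.7% ± 1.63. In FPKM the tail end thus held most of the HOX sum in OVK18 with or without HOXA9, and in SW48 only with it. In CPM, genes 9 to 13 held 56.5% to 58.6% over the 6 SW48 libraries and 62.6% to 66.9% over those of OVK18. HOXA9 gave a mean of only 3.9 of their 523 CPM in the SW48 controls, so by counts that majority did not rest on HOXA9. Genes 1 to 3 held 3.77% ± 0.336 of the FPKM sum in SW48 controls and 5.66% ± 0.0065 in OVK18.

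**Figure D2:**
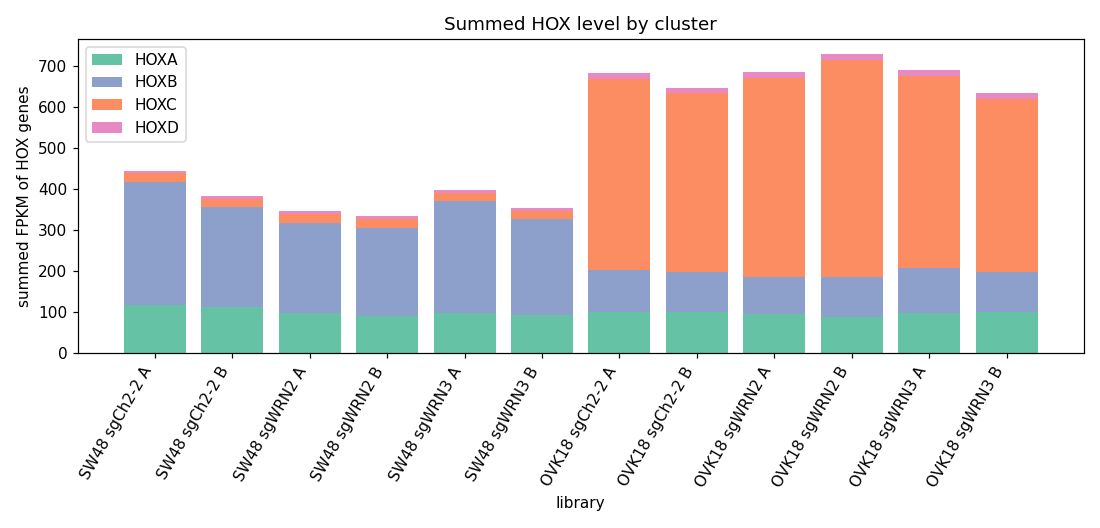
Summed FPKM of the members of each cluster in each of the 12 libraries, stacked. HOXB fills most of every SW48 bar (63.1% to 68.4%) and HOXC most of every OVK18 bar (66.3% to 72.6%).

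The order of single genes, which is compared here per length in FPKM, began in SW48 controls with HOXB9 at 132 and 102. HOXA9 followed at 56.7 and 55.0, a rank that the count table does not bear out, since its counts were far lower than this FPKM would give. Next came HOXB7 at 51.2 and 46.8 and HOXB8 at 53.7 and 39.2, whose libraries overlapped. HOXB6 at 32.3 and 29.3 and HOXA10 at 24.7 and 25.1 came next. HOXC10 and HOXB5 followed at 13.6 ± 1.73 and 12.1 ± 1.76 (SD, n = 2) and overlapped each other. In OVK18 controls the order began with HOXC10 at 154.8 and 143, HOXC13 at 119 and 104, HOXC6 at 83.7 and 81.2, HOXC4 at 50.04 and 52.9 and HOXA13 at 39.0 and 40.7, with no overlap between neighbours. HOXC12 at 20.04 ± 2.76 and HOXC9 at 19.0 ± 1.40 (SD, n = 2) overlapped each other.

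At a threshold of 1 CPM in both control libraries, 24 of 38 members were expressed in SW48 and 30 in OVK18, beside 45.8% and 46.3% of all genes. All 9 HOXC members were expressed in OVK18 and 5 of 9 in SW48. Clusters A and B had 9 of 10 members each expressed in SW48, and 8 and 9 in OVK18. Of the HOXD members only HOXD8 was expressed in SW48, and 4 of 9 were in OVK18. Across all 12 libraries 21 members were above the threshold throughout. HOXA2, HOXC5, HOXC11, HOXC12, HOXD10, HOXD11 and HOXD13 were below it in every SW48 library and above it in every OVK18 library. HOXA9 alone had the opposite pattern by counts. By FPKM with a threshold of 1 it was on in all 12 libraries and HOXA4 took that place, a difference that is described with HOXA9 below.

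**Figure D3:**
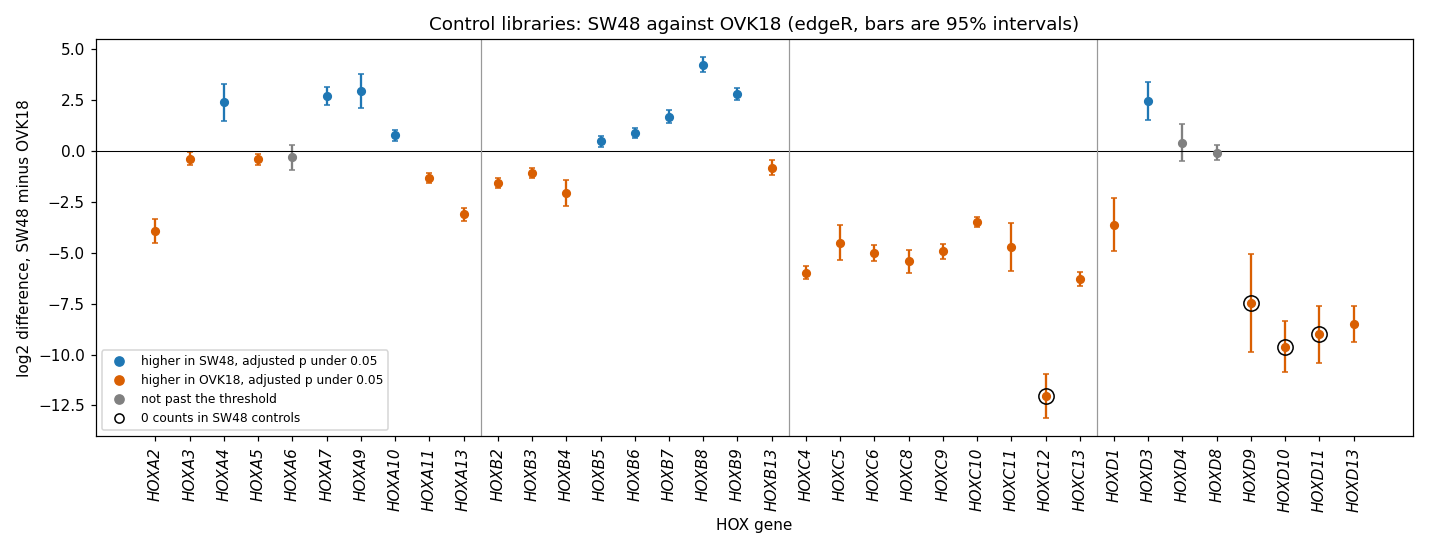
Log2 difference in CPM between the control libraries, SW48 minus OVK18, of the 36 tested members, with 95% intervals from the edgeR fit; a ring marks members with 0 counts in the SW48 controls, whose fitted value depends on the prior count. All 9 HOXC members lie below 0, and HOXB5 to HOXB9 lie above it between HOXB2 to HOXB4 and HOXB13.

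All 9 HOXC members were higher in OVK18, with a median log2 difference of -4.99. Among them HOXC5, HOXC11 and HOXC12 were kept by the filter through OVK18 libraries alone. HOXC10, which takes part in hindlimb patterning, was at 33 and 29.2 CPM in the SW48 controls and 354 and 339 in the OVK18 controls (log2 difference -3.48 ± 0.104 (SE), adjusted p = 2.4e-11, edgeR). HOXC13, a regulator of hair and nail keratin genes, was at 4.55 and 3.67 CPM against 336 and 308 (log2 difference -6.27 ± 0.157 (SE), adjusted p = 6.62e-12). HOXC6, a gene of the thoracic region, was at 5.22 and 4.81 CPM against 159 and 161 (log2 difference -4.99 ± 0.182 (SE), adjusted p = 1.34e-10). The lines were far apart for each of these genes and no library of one line reached the other. HOXC4, which shares its printed start with HOXC5, was at 1.76 and 1.84 CPM against 109 and 117 (log2 difference -5.97 ± 0.145 (SE), edgeR adjusted p = 5.43e-12). HOXC5 was at 0.224 and 0.27 CPM against 5.63 and 5.48 (log2 difference -4.49 ± 0.384 (SE)), a description for the reason of the filter. The spans of HOXC4, HOXC5 and HOXC6 overlap in RefSeq, so the split of reads among these 3 genes is uncertain.

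The middle of the HOXC cluster differed by similar sizes. HOXC8 was at 0.705 and 0.864 CPM in SW48 controls against 30.8 and 35 in OVK18 (log2 difference -5.41 ± 0.257 (SE), adjusted p = 1.49e-09, edgeR), and HOXC9, which specifies thoracic motor neurons, was at 1.03 and 1.24 CPM against 35 and 33 (log2 difference -4.92 ± 0.163 (SE), adjusted p = 5.44e-11). HOXC12 had 0 counts in all 6 SW48 libraries and 24.7 and 22 CPM in the OVK18 controls. Set against a floor of 3 counts over the 2 SW48 controls it was at least 385-fold higher in OVK18. This is a description, since the filter kept HOXC12 through OVK18 libraries alone. HOXC11, whose span overlaps the antisense gene HOTAIR, was at 2.95 and 3.62 CPM in OVK18 controls and 0.192 and 0 in SW48. Strand use in counting is not stated, so reads of overlapping sense and antisense genes in the clusters cannot be told apart.

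The HOXB cluster was split along its length. Its 5 tested members from HOXB5 to HOXB9 were higher in SW48, and its other 4, HOXB2, HOXB3, HOXB4 and HOXB13, were higher in OVK18. HOXB9, a gene of the posterior trunk, was at 422 and 343 CPM in SW48 controls and 57.9 and 50.5 in OVK18 (log2 difference 2.82 ± 0.138 (SE), adjusted p = 1.92e-09, edgeR). HOXB8, which is also active in myeloid progenitors, was at 112 and 85.8 CPM against 4.89 and 5.45 (log2 difference 4.25 ± 0.174 (SE), adjusted p = 3.59e-10), a 19.1-fold difference that was the largest in this cluster. HOXB7 was at 75.9 and 72 CPM against 21.8 and 23.5 (log2 difference 1.70 ± 0.152 (SE), adjusted p = 6.4e-07). In all 3 genes every SW48 library lay above every OVK18 library.

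HOXB6 was at 71.8 and 68.1 CPM in SW48 controls against 36.7 and 39 in OVK18 (log2 difference 0.89 ± 0.112 (SE), adjusted p = 1.67e-05, edgeR). HOXB5, which acts in enteric neuron precursors, was at 28.9 and 24.3 CPM against 19.1 and 18.8 (log2 difference 0.49 ± 0.124 (SE), adjusted p = 0.00355). Its call was lost without SW48 sgCh2-2 replicate A (adjusted p = 0.0565), and its 6 libraries overlapped between the lines. Among the members with the opposite sign, the hindbrain gene HOXB2 was at 10.4 and 10.6 CPM in SW48 against 32.4 and 30.4 in OVK18 (log2 difference -1.58 ± 0.117 (SE), adjusted p = 1.1e-07). HOXB3 was at 29 and 28.4 CPM against 58.9 and 62.6 (log2 difference -1.08 ± 0.116 (SE), adjusted p = 3.64e-06), and HOXB4, known for expanding blood stem cells, was at 3.43 and 4.38 CPM against 13.6 and 18.1 (log2 difference -2.04 ± 0.291 (SE), adjusted p = 4.68e-05). HOXB13, a gene of the tail bud, prostate and hindgut, was at 12.9 and 9.35 CPM against 22.1 and 17.3 (log2 difference -0.81 ± 0.172 (SE), adjusted p = 0.00113). Apart from HOXB5 the lines did not overlap for these members.

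In the HOXA cluster 4 members were higher in SW48 and 5 in OVK18. HOXA7 was at 20.3 and 16.9 CPM in SW48 controls and 2.72 and 2.91 in OVK18 (log2 difference 2.73 ± 0.204 (SE), adjusted p = 1.17e-07, edgeR), and HOXA10, which is required in uterine development, was at 58 and 59.9 CPM against 33 and 35.9 (log2 difference 0.77 ± 0.126 (SE), adjusted p = 0.000142). In the opposite direction, HOXA13, a gene of the distal limb and the genital tract, was at 14.2 and 14.6 CPM against 118 and 129 (log2 difference -3.10 ± 0.148 (SE), adjusted p = 1.49e-09). HOXA11, needed for the uterus and the forearm, was at 15.1 and 16.6 CPM against 41.6 and 37.6 (log2 difference -1.33 ± 0.119 (SE), adjusted p = 7.08e-07). These 4 genes had no overlap between the 6 libraries of each line. HOXA2, which patterns the second branchial arch, was at 0.577 and 0.432 CPM in SW48 controls and 8 and 7.93 in OVK18 (log2 difference -3.93 ± 0.262 (SE), adjusted p = 3.79e-08).

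The other called HOXA differences were small. HOXA5, known for its part in lung development, was at 17.5 and 17.3 CPM in SW48 controls and 21.2 and 24.4 in OVK18 (log2 difference -0.39 ± 0.122 (SE), adjusted p = 0.0124, edgeR), and the call was lost without OVK18 sgCh2-2 replicate B (adjusted p = 0.119). HOXA3, needed for the thymus and parathyroids, was at 11.3 and 12.1 CPM against 15.5 and 14.6 (log2 difference -0.36 ± 0.141 (SE), adjusted p = 0.0381). It was lost when any 1 of the 4 control libraries was left out (adjusted p = 0.0665 to 0.167) and without either OVK18 sgWRN3 library (0.0527 and 0.0538). The HOXA3 libraries of the 2 lines overlapped.

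HOXA9, a factor of blood progenitors and acute leukemias, is described after its values were seen because the 2 deposited tables differ on it. Its counts gave 4.23 and 3.57 CPM in SW48 controls and 0.699 and 0.341 in OVK18 (log2 difference 2.94 ± 0.382 (SE), adjusted p = 2.09e-05, edgeR). Its FPKM were 56.7 and 55 in SW48 and 11.8 and 11.2 in OVK18. Both tables placed SW48 above OVK18 with no overlap over 6 libraries, at FPKM of 42 to 56.7 against 6.95 to 11.8. The levels themselves did not match: divided by its FPKM and by the library size, the HOXA9 count was 35.8 times below the median of the 36 other members with a value. The HOXA9 span overlaps the readthrough gene HOXA10-HOXA9, which had 0 counts in every library. As these spans overlap, the split of reads among HOXA9, HOXA10 and the readthrough gene is uncertain.

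**Figure D4:**
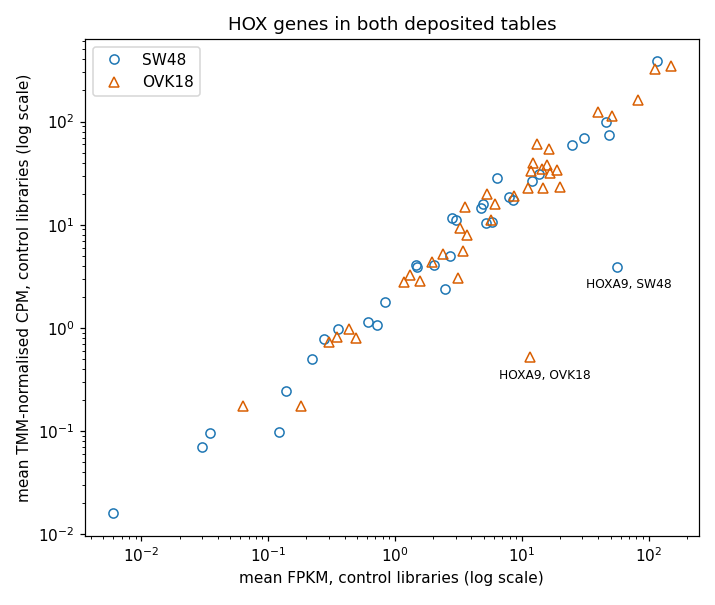
Mean CPM from the count table against mean FPKM from the length-scaled table in the control libraries of each line, both on log scales, 1 point per member above 0 in both. HOXA9 lies far below the other members in both lines, at 55.9 ± 1.13 FPKM but 3.9 ± 0.468 CPM in SW48 (SD, n = 2).

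Apart from HOXD8, the HOXD members read under 2 CPM in every SW48 library. HOXD8 did not pass the threshold between the lines, at 9.58 and 11.4 CPM in SW48 controls and 11.1 and 11 in OVK18 (log2 difference -0.08, 95% interval -0.45 to 0.29, edgeR adjusted p = 0.689). HOXD13, a digit and genital tubercle gene kept by the filter through OVK18 alone, was at 0.032 and 0 CPM in SW48 and 9.71 and 9.01 in OVK18. HOXD9, HOXD10 and HOXD11 had 0 counts in both SW48 controls. Against the floor of 3 counts over the group they were at least 16.6-fold, 72.5-fold and 47.4-fold higher in OVK18, where their mean levels were 0.984 ± 0.184, 4.36 ± 0.231 and 2.85 ± 0.0808 CPM (SD, n = 2). Among the other members under 5 CPM in both lines, HOXD1 was higher in OVK18, HOXA4 and HOXD3 were higher in SW48, and HOXA6 and HOXD4 had intervals of -0.91 to 0.32 and -0.47 to 1.32 on the log2 scale.

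Over all 3 guides the line difference was called in the same number of members, 33 of 36, 10 higher in SW48 and 23 in OVK18, beside 81.0% of all genes (40.2% higher in SW48 and 40.8% higher in OVK18). This comparison contains the control libraries and adds no separate support. The 6 libraries of one line lay wholly above the 6 of the other in 31 of 36 members, 9 with SW48 higher and 22 with OVK18 higher, beside 64.2% of all genes. HOXA3, HOXA6, HOXB5, HOXD4 and HOXD8 overlapped. Members kept by the filter through 1 line alone were all among the 31, and such members are also among the 33. They had to differ to some degree, so their part in these counts is a description. Across the 38 members, Spearman's rho of the mean log2(FPKM + 1) profiles was 0.989 to 0.998 between groups of 1 line and 0.446 to 0.482 between lines, given as a description over genes that share their libraries.

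With WRN guides, no member passed the threshold in any of the 7 guide comparisons in edgeR. Over both guides in SW48, 0 of 36 members were called beside 0.866% of all genes, and 3 had an unadjusted p under 0.05, beside 7.84% of all genes. In OVK18 over both guides 0 of 36 were called beside 0.0282% of all genes, and 0 had an unadjusted p under 0.05, beside 4.04%. With so few genes called in all, a count of 0 among 36 members is near the background. For each guide alone, the background was 3.08% for sgWRN2 and 0.0% for sgWRN3 in SW48, and 0.796% and 0.0% in OVK18; the members with an unadjusted p under 0.05 numbered 6, 1, 3 and 0 in that order, beside 13.1%, 1.85%, 13.9% and 0.817% of all genes. DESeq2 called 2 members with sgWRN2 in SW48, beside 5.04% of all genes, and 0 in each of the other 6 comparisons. Its background there was 2.13% over both guides and 0.0634% with sgWRN3 in SW48, 0.19%, 2.98% and 0.00704% over both guides, with sgWRN2 and with sgWRN3 in OVK18, and 0.0775% for the difference between the lines. The difference between the lines in the WRN-guide change was called in 0 of 36 members beside 0.0282% of all genes, with 1 unadjusted p under 0.05, beside 2.75% of all genes. The sgWRN2 and sgWRN3 comparisons of a line share their control libraries. By replicate letter the sgWRN3 libraries varied with the controls (correlation of A minus B 0.413 in SW48 and 0.39 in OVK18). The sgWRN2 libraries did not (-0.089 and -0.105), and this fit leaves such pairing out.

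The intervals limit what a change could have been. For the 22 members with at least 5 CPM in the controls of either line and at least 60 counts over the SW48 libraries, the change over both guides ran from -0.38 (HOXA10) to 0.19 (HOXC10) on the log2 scale, and the 95% half-width had a median of 0.27. All 22 intervals of this combined change lay within 1 log2 unit in either direction. For single guides in SW48 the changes ran from -0.48 (HOXB5) to 0.28 (HOXC10) with sgWRN2 and from -0.46 (HOXC9) to 0.18 (HOXC8) with sgWRN3. Their median half-width was 0.32 with either guide, and 22 and 21 of the 22 intervals lay within 1 log2 unit, the exception reaching 1.02. In OVK18 the 26 such members ran from -0.25 (HOXA3) to 0.22 (HOXC12) with a median half-width of 0.26, and all 26 intervals lay within 1 log2 unit. There the single guides ran from -0.41 (HOXA3) to 0.30 (HOXC12) with sgWRN2 and from -0.09 (HOXA3) to 0.24 (HOXB7) with sgWRN3, again with all 26 intervals within 1 log2 unit. Over both guides the widest intervals were those of HOXC8 in SW48, with a half-width of 0.72, and HOXB4 in OVK18, with 0.50.

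**Figure D5:**
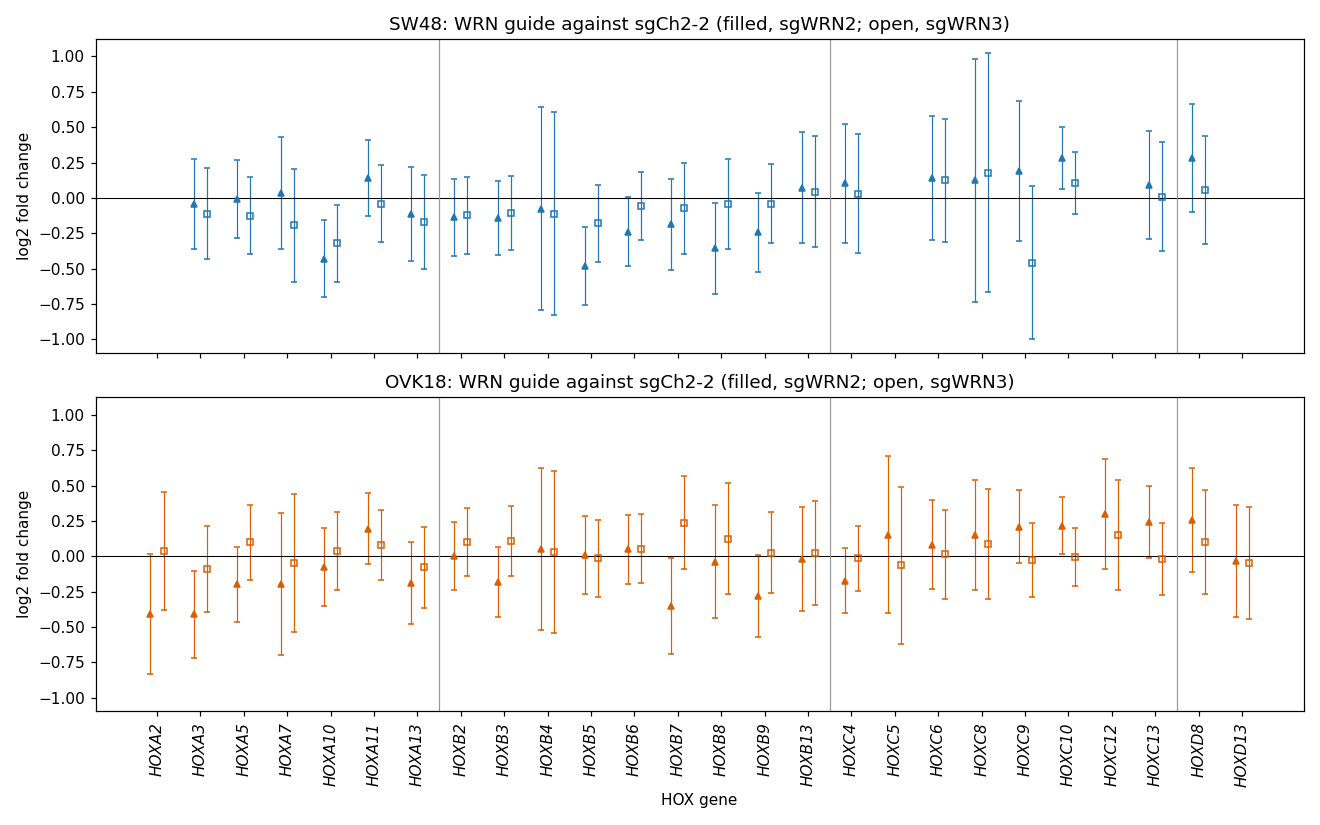
Log2 fold change with each WRN guide against sgCh2-2 of the 26 members with at least 5 CPM in the controls of either line, with 95% intervals from the edgeR fit; members with under 60 counts over the 6 libraries of a line are not drawn there. HOXA10 and HOXB5 with sgWRN2 in SW48 lie farthest below 0 relative to their intervals, and no point passed the adjusted threshold.

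HOXA10 had the lowest adjusted p of the members over both guides in SW48. Beside controls of 58 and 59.9 CPM, it was at 47.3 and 40.3 CPM under sgWRN2 and 49 and 45.2 under sgWRN3. All 4 WRN-guide libraries were below both controls, and the log2 change was -0.38 ± 0.107 (SE, edgeR adjusted p = 0.197). In OVK18, where the controls were at 33 and 35.9, it was at 35.9 and 29.5 CPM under sgWRN2 and 34.5 and 36.2 under sgWRN3, with overlapping groups. The difference between the lines in this change was -0.36 (95% interval -0.69 to -0.02), which did not pass in edgeR after adjustment. Without the 4 sgWRN2 libraries, the comparison over both guides becomes sgWRN3 against the control. In that setting, with the replicate letter as a block, HOXA10 was called in SW48 (log2 change -0.32, edgeR adjusted p = 0.032), beside 1.06% of all genes.

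HOXB5 had the lowest adjusted p of the members with sgWRN2 in SW48. It was at 19.3 and 18.9 CPM under sgWRN2 and 23.4 and 23.7 under sgWRN3 beside controls of 28.9 and 24.3, and the log2 change with sgWRN2 was -0.48 ± 0.127 (SE, edgeR adjusted p = 0.0705). Each WRN-guide library read lower than either control. With sgWRN3 the change was -0.18 (95% interval -0.45 to 0.09). In DESeq2 HOXB5 (adjusted p = 0.0137) and HOXA10 (adjusted p = 0.0375) were the 2 called with sgWRN2 in SW48. In edgeR HOXB5 was called with a filter at a mean of 5 CPM (adjusted p = 0.0389) and without OVK18 sgWRN2 replicate B (adjusted p = 0.0499), and HOXA10 with library sizes alone (adjusted p = 0.0426). In OVK18 HOXB5 was at 18.3 and 19.9 CPM under sgWRN2 and 18.9 and 18.6 under sgWRN3 beside controls of 19.1 and 18.8, a narrow range with overlap.

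HOXB6, HOXB8 and HOXB9 read lower in both sgWRN2 libraries of SW48 than in both sgWRN3 libraries, and the difference between the guides was not tested. HOXB8 was at 77 and 77.4 CPM under sgWRN2 and 102 and 90.6 under sgWRN3 in SW48, beside controls that were themselves apart at 112 and 85.8 (log2 change with sgWRN2 -0.36, edgeR adjusted p = 0.301). HOXB9 was at 323 and 323 CPM under sgWRN2 and 385 and 358 under sgWRN3, and its sgWRN3 libraries lay within the range of its controls. HOXB6 was at 57.2 and 61.4 CPM under sgWRN2 and 65.4 and 69 under sgWRN3. HOXB7 and HOXB2 instead read below both controls in all 4 libraries. HOXB7 was at 71.6 and 58.4 CPM under sgWRN2 and 69.2 and 71.3 under sgWRN3. HOXB2 was at 9.56 and 9.57 CPM under sgWRN2 and 9.54 and 9.77 under sgWRN3. In all, 4 of 36 members (HOXA10, HOXB2, HOXB5 and HOXB7) had all 4 WRN-guide libraries of SW48 below both controls, beside 5.33% of all genes, and 0 had them above, beside 6.01%.

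The remaining HOXB members showed overlap in SW48. HOXB3 was at 24.3 and 27.7 CPM under sgWRN2 and 24.5 and 28.7 under sgWRN3. HOXB4 was at 2.24 and 5.1 CPM under sgWRN2 and 3.28 and 3.86 under sgWRN3, and its lowest and highest libraries both carried sgWRN2. HOXB13 was at 12 and 11.5 CPM under sgWRN2 and 11.9 and 11.2 under sgWRN3, within the range of its controls.

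In OVK18, HOXB7 had the widest spread of the members above 5 CPM, a log2 range of 0.93 over 6 libraries, at 20.3 and 15 CPM under sgWRN2 and 28.7 and 24.8 under sgWRN3 beside controls of 21.8 and 23.5. Its sgWRN2 libraries were low and its sgWRN3 libraries high, and the change with sgWRN2 was -0.35 (edgeR adjusted p = 0.338). HOXB9 was at 41.7 and 47.6 CPM under sgWRN2 and 60.3 and 50 under sgWRN3, with both sgWRN2 libraries below its controls. HOXB8 was at 4.73 and 5.43 CPM under sgWRN2 and 6.4 and 4.93 under sgWRN3 and overlapped its controls. HOXB3, nearer the head end, was at 55.2 and 51.8 CPM under sgWRN2 and 63.7 and 67.1 under sgWRN3, so that sgWRN2 read below and sgWRN3 above both controls. HOXB2 was at 31.9 and 31 CPM under sgWRN2 and 34.6 and 32.7 under sgWRN3, with both sgWRN3 libraries above its controls. HOXB4, HOXB6 and HOXB13 overlapped their controls, over ranges of 13.6 to 19, 35.9 to 42.5 and 17.3 to 22.1 CPM across the 6 libraries. None of these members had an edgeR adjusted p under 0.05 with either guide.

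For each of the 9 HOXC genes, every library of OVK18 lay above every SW48 library, whichever guide was used. HOXC10 was at 400.1 and 405 CPM under sgWRN2 and 358 and 332 under sgWRN3 in OVK18, with both sgWRN2 libraries above the controls (log2 change with sgWRN2 0.22, edgeR adjusted p = 0.327). In SW48 it was at 39.5 and 36.4 CPM under sgWRN2 and 34.2 and 32.8 under sgWRN3, again with sgWRN2 above the controls (log2 change 0.28, adjusted p = 0.207). HOXC13 was at 369 and 391 CPM under sgWRN2 and 339.7 and 295 under sgWRN3 in OVK18, and in the same order at 4.3 and 4.59 and at 4.77 and 3.62 in SW48. HOXC12 was at 26.3 and 31.1 CPM under sgWRN2 and 28.9 and 22.9 under sgWRN3 in OVK18 and at 0 in each SW48 library. For HOXC13 and HOXC12 the sgWRN2 libraries of OVK18 lay above both controls and the sgWRN3 libraries did not all do so.

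At the other end of the cluster, HOXC4 was at 96.2 and 105 CPM under sgWRN2 and 111 and 113 under sgWRN3 in OVK18, and in the same order at 1.75 and 2.11 and at 1.61 and 2.05 in SW48. HOXC5 was at 5.26 and 7.18 CPM under sgWRN2 and 6.1 and 4.54 under sgWRN3 in OVK18, and in the same order at 0.182 and 0.638 and at 0.239 and 0.241 in SW48. HOXC6 was at 175 and 165 CPM under sgWRN2 and 164 and 159.6 under sgWRN3 in OVK18, and in the same order at 6.05 and 5.04 and at 4.06 and 6.94 in SW48. The SW48 levels of these 3 genes stayed far under those of OVK18. HOXC8 was at 35.4 and 37.8 CPM under sgWRN2 and 32.5 and 37.4 under sgWRN3 in OVK18, and in the same order at 0.726 and 0.957 and at 0.477 and 1.27 in SW48. HOXC9 was at 38.8 and 39.8 CPM under sgWRN2 and 33 and 33.6 under sgWRN3 in OVK18, and in the same order at 1.27 and 1.28 and at 0.716 and 0.905 in SW48, where its values were close to the expression threshold.

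Among the HOXA members, HOXA3 in OVK18 was at 12 and 10.5 CPM under sgWRN2 and 13.9 and 14.3 under sgWRN3 beside controls of 15.5 and 14.6. Each of its WRN-guide libraries read lower than either control, and the change with sgWRN2 was -0.41 ± 0.141 (SE, edgeR adjusted p = 0.213). In SW48 HOXA3 was at 10.5 and 12.2 CPM under sgWRN2 and 11.2 and 10.5 under sgWRN3. In OVK18, 2 of 36 members, HOXA3 and HOXD11, read lower in every WRN-guide library than in either control, beside 3.84% of all genes, and HOXD8 was the 1 member above them, beside 2.9%.

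HOXA2 was at 5.68 and 6.36 CPM under sgWRN2 and 8.14 and 8.22 under sgWRN3 in OVK18, and in the same order at 0.605 and 0.574 and at 0.179 and 0.482 in SW48. In OVK18 both of its sgWRN2 libraries were below the controls. HOXA5 was at 17.5 and 17.1 CPM under sgWRN2 and 15.3 and 16.5 under sgWRN3 in SW48, and in the same order at 19.9 and 19.8 and at 25 and 23.9 in OVK18. HOXA7 was at 18.8 and 19.5 CPM under sgWRN2 and 17.8 and 14.9 under sgWRN3 in SW48, and in the same order at 2.28 and 2.69 and at 3.31 and 2.17 in OVK18. The edgeR adjusted p-values of these 3 genes were all above 0.05 with either guide. HOXA11 was at 16.8 and 18.1 CPM under sgWRN2 and 16.3 and 14.4 under sgWRN3 in SW48, and in the same order at 44.9 and 45.8 and at 42 and 41.5 in OVK18. HOXA13 was at 14.5 and 12 CPM under sgWRN2 and 12 and 13.6 under sgWRN3 in SW48, and in the same order at 121 and 95.4 and at 109.8 and 124 in OVK18, and the lowest library of each line carried a WRN guide.

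HOXD8 was at 14.1 and 11.3 CPM under sgWRN2 and 10.5 and 11.2 under sgWRN3 in SW48, and in the same order at 14.7 and 11.7 and at 11.1 and 12.6 in OVK18. HOXD13 was at 9.39 and 8.82 CPM under sgWRN2 and 8.23 and 9.82 under sgWRN3 in OVK18, and in the same order at 0.0605 and 0.0638 and at 0 and 0 in SW48. The log2 change of HOXD8 over both guides was 0.17 (95% interval -0.16 to 0.50) in SW48 and 0.18 (-0.14 to 0.50) in OVK18. HOXD10 and HOXD11 had 0 counts in the SW48 controls and 1 or 2 counts in each sgWRN2 library, which is at or under the floor and gives no fold, although both had an unadjusted p under 0.05 in edgeR.

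The on or off call at 1 CPM was the same in all 6 libraries of a line for 34 of 38 members in SW48 and 34 of 38 in OVK18, beside 96.9% and 97.0% of all genes. The exceptions were HOXC8, HOXC9, HOXD3 and HOXD4 in SW48 and HOXA4, HOXD1, HOXD4 and HOXD9 in OVK18. Each lay close to the threshold, from 0.477 CPM (the lowest HOXC8 library) to 1.69 (the highest HOXD4 library) in SW48. The log2 range over the 6 libraries of a line had a median of 0.38 over 16 members above 5 CPM in SW48, beside 0.38 for all such genes, and 0.33 over 23 members in OVK18, also beside 0.38. HOXB5 was the widest in SW48, at 0.61.

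Among the genes that act with or on HOX genes, all 8 TALE cofactors reported here were called between the lines' controls, 3 higher in SW48 and 5 in OVK18, beside the same 68.6% of all genes. Of these, MEIS2 passed the filter through SW48 libraries alone and MEIS1 and PKNOX2 through OVK18 alone. These 3 had to differ to some degree, so their differences are descriptions. The 5 kept through both lines were all called, 2 higher in SW48 and 3 in OVK18. MEIS1 had 0 counts in the SW48 controls and 19.5 and 21.1 CPM in the OVK18 controls, at least 338-fold higher against the floor of 3 counts over the group. MEIS2 had the opposite order, at 9.71 and 10.5 CPM in SW48 and 0.117 and 0.031 in OVK18 (log2 difference 7.08 ± 0.49 (SE), edgeR). MEIS3 was at 0.993 and 1.19 CPM against 41.9 and 38.1 (log2 difference -5.21 ± 0.216 (SE), adjusted p = 4.12e-10, edgeR). PKNOX2, near the floor in SW48, was at 0.128 and 0 against 0.738 and 0.495.

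Of 19 Polycomb genes, 3 were higher in SW48 and 7 in OVK18. JARID2, a cofactor of Polycomb complex PRC2, was at 14.9 ± 0.467 CPM in SW48 controls and 51.7 ± 0.603 in OVK18 (SD, n = 2; log2 difference -1.79 ± 0.155 (SE), adjusted p = 4.7e-07, edgeR). EZH2, the methyltransferase of the same complex, was at 81 ± 8.7 CPM against 44.7 ± 3.18 (log2 difference 0.86 ± 0.132 (SE), adjusted p = 9.2e-05). RNF2 and PCGF2, subunits of PRC1, were higher in OVK18 by the same fit (-1.22 and -1.22 on the log2 scale). Of 15 MLL and trithorax genes, 2 were higher in SW48 and 6 in OVK18. The largest differences were those of MLLT3 (-1.84), KDM6A (-0.81), ASH1L (-0.78) and WDR5 (0.58). Against a background of 68.6%, 10 of 19 and 8 of 15 were shares below it.

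Of 8 upstream regulators, 5 were tested and 3 called, a share near that of 68.6% over all genes, and CDX2 passed the filter through SW48 libraries alone. CDX2 was at 104 and 70.9 CPM in the SW48 controls and 0.0388 and 0 in the OVK18 controls, where 1 count was read in all. CTCF, which bounds domains within the clusters, was higher in SW48 (log2 difference 0.43 ± 0.0972 (SE), adjusted p = 0.00183, edgeR) and the retinoic acid receptor RARG higher in OVK18 (log2 difference -0.62 ± 0.184 (SE), adjusted p = 0.01). Whether these regulators bear on the HOX levels was not tested.

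Of 14 noncoding and neighbouring genes of the clusters tested, 3 were higher in SW48 and 10 in OVK18, beside 33.9% and 34.7% of all genes. Only 6 of the 14 passed the filter in both lines, of which 2 were higher in SW48 and 4 in OVK18. Another 6, among them HOTAIR, HOTTIP, HOXC13-AS and HOXC-AS2, passed through OVK18 libraries alone, and 2, MIR196A1 and HOXD-AS2, through SW48 alone. Genes kept through 1 line alone had to differ to some degree, so their differences are descriptions. HOTAIR, a noncoding RNA from the HOXC cluster, was at 0.0961 and 0.054 CPM in SW48 controls and 26.3 and 36.1 in OVK18 (log2 difference -8.51 ± 0.357 (SE), edgeR). HOTTIP, at the HOXA13 end of cluster A, was at 0.224 and 0.432 CPM against 11.8 and 13.9 (log2 difference -5.37 ± 0.352 (SE)). HOXC13-AS (-6.53) and HOXC-AS2 (-5.23) were higher in OVK18, as the HOXC genes were. HOXA-AS3 and HOXA10-AS were higher in SW48.

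MIR196A1, a microRNA gene in the HOXB cluster, was the remaining one higher in SW48. Its mature miR-196a-5p lies at chr17:48632532-48632553 on the minus strand (GRCh38.p14). RefSeq gives the same mature sequence from MIR196A2 in the HOXC cluster (chr12:53991762-53991783). The miR-196 family is known to act on HOX messengers, HOXB8 among them. The miR-196a sequence is shown beside that of miR-196b from the HOXA cluster, as RefSeq gives them, with the seed (bases 2 to 8) in capitals.
miR-196a-5p: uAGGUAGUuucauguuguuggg
miR-196b-5p: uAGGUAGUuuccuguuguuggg
Both share the seed AGGUAGU and differ by A12C, counted from the 5′ end of miR-196a-5p. The MIR196A1 row held 14 to 31 counts in each SW48 library and 0 to 5 in each OVK18 library, and the MIR196B row 0 to 7 counts in any library. These are reads over the hairpin genes in messenger RNA libraries and say nothing of mature microRNA levels.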

How the data were processed

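Messenger RNA-seq libraries (100 ng total RNA, per the labels' protocols) of 6 groups of 2 were compared. The deposited counts per gene came from the authors' STAR 2.5 alignment to build hg19 (bcl2fastq 2.18 made the reads), per the submitters' processing notes; annotation and strand settings are not given in the sources used here. The second table deposited by the authors was read as FPKM, because counts divided by it grow with transcript length and the notes name Cufflinks 2.2.1. No header names its unit.

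The 92 spike-in rows, all at 0, were left out. Counts of 12 libraries (15423162 to 32581625 counts each) were fitted in R 4.3.3 with edgeR 4.0.16: TMM scaling, filterByExpr (about 0.483 CPM in 2 libraries), 14199 genes, 1 coefficient per group, robust quasi-likelihood fit. P-values were Benjamini-Hochberg adjusted over all genes with a threshold of 0.05. Steps were tested on simulated counts. Standard errors are the log2 difference over the square root of F. Alternatives were other scalings and filters, DESeq2 1.42.0, limma 3.58.1 on log2(FPKM + 1), a replicate block, and leaving out each library. A further setting left out the 4 sgWRN2 libraries, so the change over both guides there is that of sgWRN3 alone. Replicates differed beyond counting error in every group (chi-square per gene 8.67 to 24.9). Intervals and floors from counts cover counting error only.

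The members and lists were chosen with earlier results of these data known. Members with a mean of at least 5 CPM in the controls of either line, or called in a guide comparison, are given by library, others by counts and ranges. From the other lists the 4 largest called line differences and any gene called in a guide comparison are named. A gene of these lists is not reported here. Promoters and microRNAs come from RefSeq (GRCh38.p14), used only for sequence, position and overlap of spans.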

Additional observations from a re-analysis of the deposited data

How the results depend on the processing

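The count of members that differed between the control libraries, 33 in the edgeR fit, ran from 22 (of 23 members left by a filter at a mean of 5 CPM) to 33 over the other settings and from 31 to 33 when 1 library was left out. Over all guides it ran from 22 to 34, and from 32 to 34 with 1 library left out. Members called in SW48 with sgWRN2, 0 in the edgeR fit, were 1 with library sizes alone (HOXA10), 1 with the 5 CPM filter (HOXB5), 2 in DESeq2 and 0 to 1 with 1 library left out. Over both guides in SW48 the count was 0 in each setting except 1 (HOXA10) without the 4 sgWRN2 libraries and with the replicate block. That setting compares sgWRN3 alone with the control. The other 5 guide comparisons stayed at 0 in each setting run, but the sgWRN3 comparison in SW48 was not itself run without the sgWRN2 libraries. Of 4575 values of named members under alternatives, 4557 kept their side of the threshold, 12 lost a call, 6 gained one and 0 called values changed sign; 10 of the 12 were HOXA3. The expressed members ran from 21 to 27 in SW48 and 30 to 33 in OVK18 with thresholds of 0.5 and 2 CPM and 1 FPKM. Leaving out HOXA9, chosen after seeing the data, moved the FPKM shares of HOXA, HOXB and HOXC to 16.5%, 76.1% and 5.51% in SW48 controls and 13.7%, 15.2% and 68.9% in OVK18. It moved those of genes 1 to 3, 4 to 8 and 9 to 13 to 4.37%, 47.8% and 47.8% in SW48, and that of genes 1 to 3 to 5.76% in OVK18.

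The replicate letters do not pair all the libraries: the correlation of A minus B between groups of a line was -0.089, 0.413 and 0.00693 in SW48 and -0.105, 0.39 and -0.226 in OVK18. The sgCh2-2 and sgWRN3 groups of both lines did deviate together (0.331 to 0.413 over their 6 pairs), as did the sgWRN2 groups of the 2 lines (0.35). What they share is not given in the labels, so a change with sgWRN2 cannot be told apart from it. With the replicate block, 32 members differed between the controls (10 higher in SW48, 22 in OVK18; HOXA3 lost, adjusted p = 0.0521), 33 over all guides and 0 in each guide comparison with all 12 libraries. With 2 libraries a group, depth limits members near 1 CPM most; groups of 2 are too small for a check of outlying libraries.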
